A study of Homo sapiens with 12 samples.

Results

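The genes described here encode 5 families of enzymes that oxidize foreign compounds, lipids and aldehydes or attach a polar group to them: the cytochromes P450 (CYP), the UDP-glucuronosyltransferases (UGT), the glutathione S-transferases (GST, with the membrane-bound MGST), the aldehyde dehydrogenases (ALDH) and the sulfotransferases (SULT). They were chosen by symbol, without CYP51A1, ALDH18A1 and names of pseudogenes. This left 130 of the 58884 genes in the deposited table, and 66 of them reached the limit set for a description, a value of at least 10 normalized counts in at least 4 of the 12 libraries. A normalized count is a read count that the authors divided by a factor for its library. Of the 66, 26 are CYP, 17 GST, 15 ALDH, 4 UGT and 4 SULT genes.

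RNA came from KYSE70 cells, an established line of human esophageal squamous cell carcinoma. The control was 4 libraries of cells without treatment, and the other groups were 4 libraries of cells given 10 µM pyrimethamine and 4 of cells given 20 nM mitoxantrone, each for 72 h. Pyrimethamine is an antifolate used against malaria and toxoplasmosis, while mitoxantrone, given against cancer, slides between DNA bases and traps type II topoisomerases on DNA. Both are named in the series as inhibitors of NRF2, the transcription factor that switches on many detoxification genes, and the comparisons ask how each drug changed the transcripts. Neither a vehicle in the control nor separate cultures for the 4 libraries of a group are stated. The p-values thus take in only the variation among these libraries, which may be technical.

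In textbook terms, CYP enzymes insert oxygen into a substrate and ALDH enzymes turn aldehydes into acids, while GST, UGT and SULT enzymes couple glutathione, glucuronic acid or sulfate to the product so that it can leave the cell. The same families also have inner tasks, among them the making and breakdown of retinoic acid, steroids, vitamin D, eicosanoids and folate intermediates. Their transcription is known to be set by sensors such as NRF2, which binds antioxidant response elements, and the aryl hydrocarbon receptor AHR, which binds xenobiotic response elements. Squamous epithelium of the esophagus is exposed to food and smoke, and its tumors often carry an active NRF2 pathway.

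Sequence before the RefSeq start of 4 genes is shown. The first pair, both of the CYP4F cluster on chromosome 19, fell under pyrimethamine and rose under mitoxantrone. The other 2 carry the element cores for which NRF2 and AHR targets are known. Each is given 5′ to 3′ on the gene's own strand, from the GRCh38.p14 promoter table of RefSeq. By the GENCODE gene bounds used below for positions, only the stretch of CYP4F11 lies upstream of its gene. Those of CYP4F3, GSTP1 and CYP1A1 lie inside the annotated gene. Capitals mark a match to TGACNNNGC, the core of the antioxidant response element, or in CYP1A1 to GCGTG, the core of the xenobiotic response element.
CYP4F3 (chr19:15641062-15641293, plus strand, no match): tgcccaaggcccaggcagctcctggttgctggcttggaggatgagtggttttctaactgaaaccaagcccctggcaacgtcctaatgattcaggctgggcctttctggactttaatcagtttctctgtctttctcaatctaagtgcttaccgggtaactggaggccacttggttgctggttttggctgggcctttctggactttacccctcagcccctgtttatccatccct
CYP4F11 (chr19:15934868-15935117, minus strand): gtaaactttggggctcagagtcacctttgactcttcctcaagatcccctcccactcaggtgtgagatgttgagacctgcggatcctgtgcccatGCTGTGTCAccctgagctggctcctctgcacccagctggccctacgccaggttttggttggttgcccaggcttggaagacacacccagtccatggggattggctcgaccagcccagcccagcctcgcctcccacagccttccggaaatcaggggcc
GSTP1 (chr11:67583736-67583765, plus strand, the bases around the match): gccggcgccgTGACTCAGCactggggcgga
CYP1A1 (chr15:74725568-74725597, minus strand, the bases around the match): ccagggaaggagGCGTGgccacacgtacaa

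Both strands were searched over the 250 bases before the RefSeq start, and 50 of the 66 genes could be matched to that table by symbol. TGACNNNGC was found in 7 of the 50 (14%) and in 10.9% of the 35116 promoters of the table, and GCGTG in 15 (30.0%) and in 32.2%. The 7 with TGACNNNGC were CYP2B6, CYP4F11, CYP4V2, GSTA4, GSTM1, GSTO1 and GSTP1, and their responses to the drugs went both ways, as given below. TGACTCA, the site of AP-1, was found in GSTP1 alone among the 50 (2.0%, against 4.2% of all promoters), where it overlaps the match to TGACNNNGC. A match is only a description of the letters in this window.

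Libraries held 47.5 to 94.5 M reads assigned to genes. All 12 markers of squamous epithelium passed the limit, whereas 4 of 10 hepatocyte, 0 of 7 intestinal, 3 of 6 fibroblast, 1 of 6 leukocyte and 2 of 5 endothelial markers did, with CDH17 and MS4A1 at 0 in all libraries. Most of these lists moved with a group, and their part in the results below was not tested. The summed squamous markers ranged over 409740-432914 normalized counts (control), 470252-495869 (pyrimethamine) and 394592-421123 (mitoxantrone). KRT5, KRT6A and CDH1 were higher and TP63, SOX2, DSG3, ITGB4 and EPCAM lower in all pyrimethamine than in all control libraries. KRT14, KRT17, DSC3 and PKP1 overlapped the control. TP63, SOX2, ITGB4 and EPCAM were higher in all mitoxantrone than in all control libraries. KRT6A, KRT17, DSC3, PKP1 and CDH1 were lower there, while KRT5, KRT14 and DSG3 overlapped the control. The summed fibroblast markers, chiefly COL1A1, ranged over 16889-17596 normalized counts (control), 11847-13230 (pyrimethamine) and 5873-7647 (mitoxantrone), while COL3A1 held 2169 to 2476 in the control and 1996 to 2435 under mitoxantrone. For the endothelial markers, chiefly VWF, the ranges were 967-1091, 1102-1193 and 186-252, for the leukocyte markers 1.32-15.9, 19.4-33.8 and 0.95-8.26, for the intestinal ones 3.96-11.9, 11.8-20.5 and 1.79-6.197, and for the hepatocyte ones 137-175, 158-172 and 10.5-23.8. Within the last list ALB (37.4 to 69.0, control 25.1 to 33.2) and AHSG (42.7 to 57.9, control 7.27 to 32.2) were higher under pyrimethamine. HNF4A was lower (32.9 to 46.3, control 74.7 to 113), and SERPINA1 overlapped the control. The mitochondrial share was 6.16% to 6.69% of reads for control libraries, 6.83% to 8.33% for pyrimethamine and 3.23% to 3.89% for mitoxantrone. Genes with any read numbered 22652 to 24682, 24599 to 25148 and 21766 to 22854 in the same order. Replicate 1 of mitoxantrone stood apart from the other 3 of its group, with a chi-square per degree of freedom of 24.5 to 34.9 against them, where all other pairs within a group had 5.50 to 12.4. The totals over the 66 genes are therefore given with and without it. Of the counts by family, role and list given below, one moved by more than 1.5 times without it, that of CYP partners that fell under mitoxantrone (3 with it, 5 without).

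Of the 66 genes, 15 rose and 14 fell under pyrimethamine and 19 rose and 29 fell under mitoxantrone, at an adjusted p of 0.05 in limma. Without replicate 1 of mitoxantrone the latter were 17 and 28 (33.4% and 35.7% of all genes). Among all 16950 genes tested, 53.3% passed under pyrimethamine (26.4% higher, 26.9% lower) and 69.3% under mitoxantrone (33.5% higher, 35.8% lower). The shares of the enzyme genes were 43.9% and 72.7%. In such bulk samples, fewer cells that express a gene and less of its RNA per cell cannot be told apart. A change of at least 2-fold was found in 4 higher and 2 lower genes under pyrimethamine and in 9 higher and 18 lower genes under mitoxantrone, beside 4.35% and 2.35%, and 3.88% and 13.8%, of all genes tested. The groups did not overlap in 31 and 43 of the 66, beside 51.1% and 60.9% of all genes. Without replicate 1 of mitoxantrone, 7 genes were at least 2-fold higher and 18 lower, and 45 did not overlap (66.7% of all genes). The median log2 change was 0.0053 and -0.11 for the enzyme genes, and 0.0018 and -0.0080 for all genes tested.

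Counts were also split by the level of the genes. Of the 29 enzyme genes with a mean under 100 normalized counts over the 12 libraries, 17 fell and 5 rose under mitoxantrone, and of the 37 with a mean of at least 100, 12 fell and 14 rose (16 and 4, and 12 and 13, without replicate 1). Of all tested genes with a mean under 100, 38.2% fell and 13.5% rose, and of those at or above it 34.8% fell and 41.5% rose. Under pyrimethamine 3 of the 29 scarce genes rose and 1 fell, beside 17.7% and 9.54% of all scarce genes, and 12 of the 37 abundant ones rose and 13 fell, beside 29.9% and 33.9%. Some members would not have reached the limit without the libraries of a certain group. Without the pyrimethamine libraries 7 of the 66 would have missed it (CYP11A1, CYP2C18, CYP46A1, CYP4F12, CYP7B1, GSTT2 and UGT2B17), without those of mitoxantrone 4 (CYP4F12, GSTA1, GSTT2 and UGT1A7) and without the control 3 (CYP2C18, CYP46A1 and CYP4F12). Where that group is the one in which the gene is high, its difference is partly set by the limit. This holds for GSTA1, GSTT2 and UGT1A7 under mitoxantrone and for CYP7B1 under pyrimethamine, among others. The counts above hold such genes. CYP46A1 and CYP4F12 passed in no comparison. CYP7B1 and GSTT2 had no control library at the limit, GSTA1 and UGT1A7 none under pyrimethamine, and CYP11A1, CYP27C1, CYP2C18 and UGT2B17 none under mitoxantrone.

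**Figure D1:**
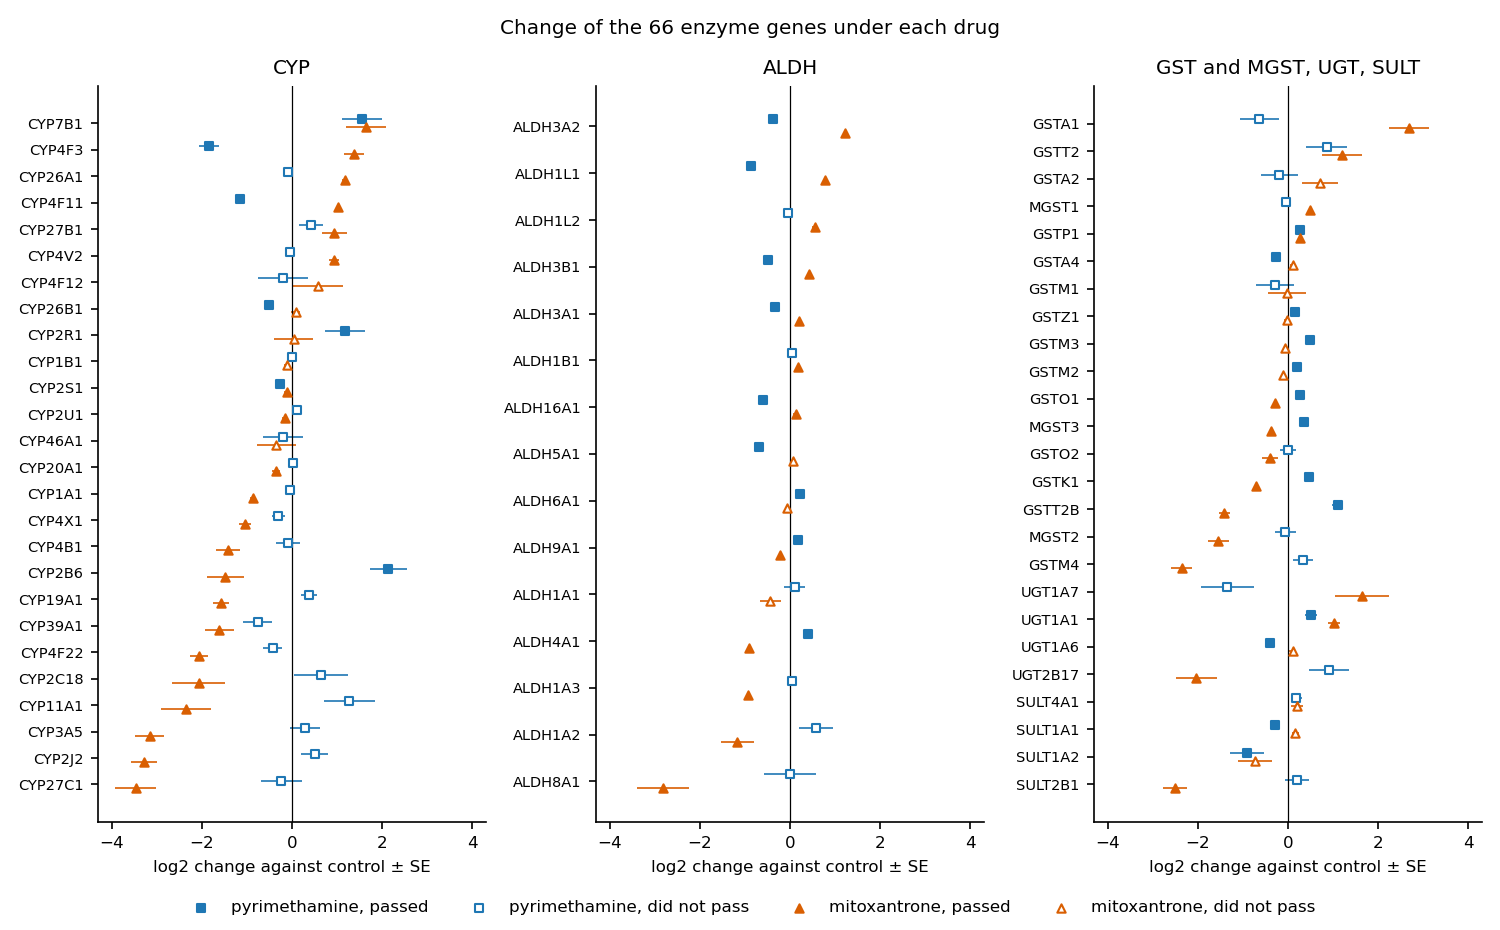
Log2 change of each of the 66 genes against the control with its SE, in 3 panels by family (x axis, log2 change on the scale of log2 of the normalized count plus 1). Squares are pyrimethamine and triangles mitoxantrone, filled where the gene passed the test. Triangles spread from -3.46 (CYP27C1) to 2.68 (GSTA1), squares from -1.83 (CYP4F3) to 2.14 (CYP2B6).

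Levels between genes can be compared only per length, here as normalized counts per kb of exon of GENCODE 29. On that scale the enzyme transcripts of untreated KYSE70 cells were led by GSTP1, the pi-class transferase typical of squamous epithelium, with 22995, and by ALDH3A1, the aldehyde dehydrogenase best known from the cornea, with 16852. They were followed by GSTO1 (7936), ALDH3A2 (7210), ALDH1A3 (6364), GSTM3 (2565), ALDH1B1 (2389) and ALDH9A1 (2048). The highest CYP was CYP2S1, an enzyme of epithelia outside the liver, with 1014, then CYP4F11 with 812 and CYP1B1 with 640. GSTP1 made up 62.7% of the summed GST level per kb in the control, ALDH3A1 44.1% of that of ALDH, UGT1A6 81.0% of that of UGT and CYP2S1 24.6% of that of CYP. CYP2S1 was overtaken under mitoxantrone, where CYP4F11 held 31.9% of the CYP level.

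**Figure D2:**
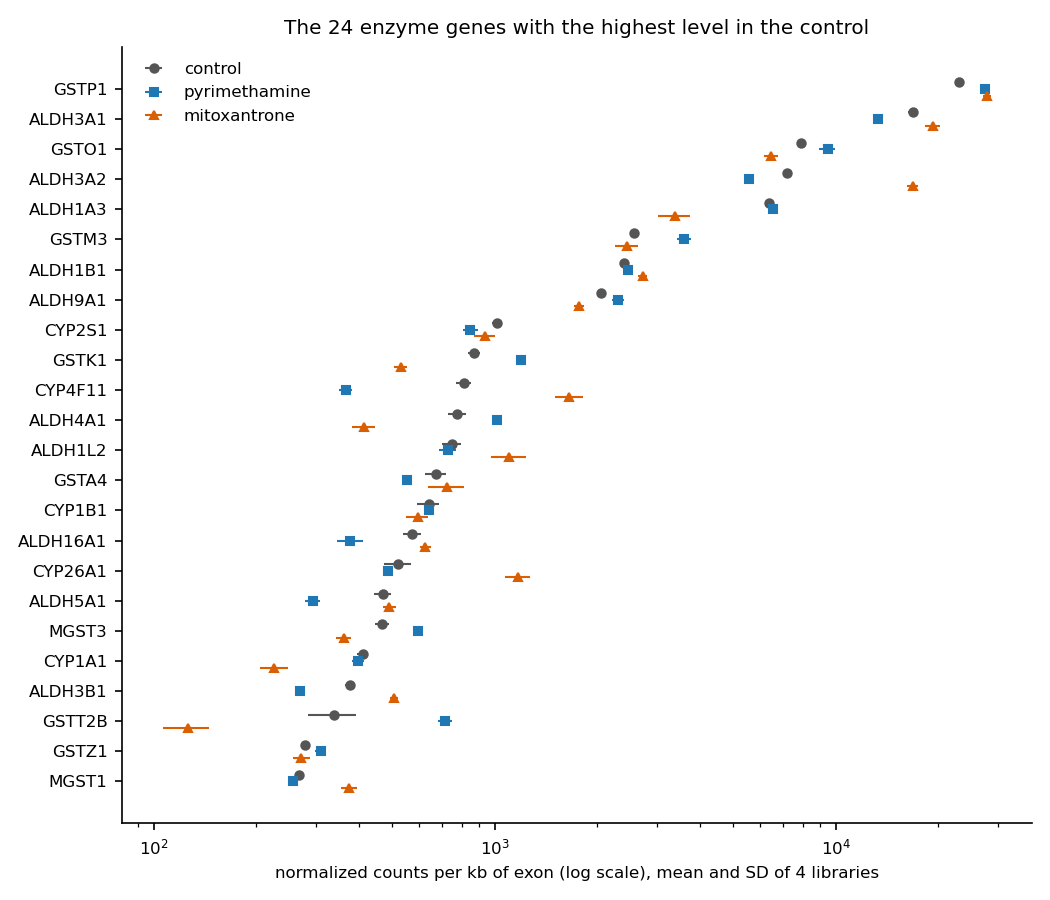
Mean and SD (n = 4) of the normalized count per kb of exon in each group for the 24 genes with the highest control level (log x axis). GSTP1 led in all 3 groups, and ALDH3A2, CYP4F11 and CYP26A1 have the widest distance between their blue squares (pyrimethamine) and orange triangles (mitoxantrone) to the right.

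Among the 64 genes below the limit were most of the classical enzymes of the liver, such as CYP3A4 (at most 6.57 normalized counts in any library), CYP1A2 (5.34) and CYP2D6 (4.13). The mitochondrial acetaldehyde enzyme ALDH2 reached 14.3 in 1 library and at most 6.68 in the other 11, and ALDH7A1 reached 6.57. SULT1A4 was at 0 in every library and SULT1A3, its near copy, at most at 7.48. How reads that fit both copies were counted is not given in the sources used here. In all, 15 of the 64 were at 0 throughout, 7 were at the limit in 1 to 3 libraries, and 2 were antisense RNAs named after ALDH1L1. Just outside the limit, in 3 libraries, were CYP2D7 (highest value 13.6) and UGT2B15 (17.5). CYP2C18 (20.8) and CYP4F12 (12.4), just inside, were at it in 4.

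Of the 6 CYP genes that handle foreign compounds, CYP2B6 rose and CYP2S1 fell under pyrimethamine, and under mitoxantrone 5 fell and CYP1B1 did not pass, beside 35.8% of all genes that fell there. Of the 5, CYP2B6 and CYP2C18 lost the call with quantile normalization and CYP2S1 in other settings. CYP2B6, an enzyme known for its induction through the receptors CAR and PXR, had 15.9, 24.4, 18.7 and 17.1 normalized counts in the control libraries, 71.2, 83.8, 89.0 and 104 under pyrimethamine, and 11.4, 15.3, 2.47 and 2.69 under mitoxantrone. All pyrimethamine libraries lay above all others, and all mitoxantrone libraries below the control. The log2 change was 2.14 ± 0.41 (SE, adjusted p = 0.000149) under pyrimethamine and -1.47 ± 0.41 (adjusted p = 0.0032) under mitoxantrone. With quantile normalization the fall was -0.71 with an adjusted p of 0.0784 and did not pass.

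CYP1A1, the textbook target of AHR, had 1341, 1388, 1467 and 1439 normalized counts in the control, 1431, 1312, 1343 and 1381 under pyrimethamine, and 691, 855, 742 and 814 under mitoxantrone. Mitoxantrone libraries were thus all below the other groups, which overlapped one another. Its log2 change was -0.86 ± 0.063 (SE, adjusted p = 8.6e-11) under mitoxantrone and -0.04 ± 0.063 (adjusted p = 0.586) under pyrimethamine. CYP1B1, another AHR target and the third highest CYP per kb, had 3851 ± 280, 3853 ± 87.4 and 3572 ± 275 normalized counts (SD, n = 4) in control, pyrimethamine and mitoxantrone, and passed in neither comparison. Its mitoxantrone value was -0.11 on the log2 scale (adjusted p = 0.082), and it passed as lower after either rescaling to equal totals or quantile normalization.

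CYP3A5, the CYP3A member of tissues outside the liver, fell under mitoxantrone by 3.16 on the log2 scale (SE 0.33, adjusted p = 2.4e-08). Its values were 78.6, 76.6, 66.4 and 61.9 in the control, 90.8, 68.0, 88.0 and 102 under pyrimethamine, and 3.10, 7.63, 17.3 and 5.38 under mitoxantrone. Only the mitoxantrone libraries stood apart, and the lowest of them equals 3 reads. CYP2S1 went from 2915 ± 92.7 to 2440 ± 127 under pyrimethamine (log2 -0.26, adjusted p = 0.00022). Under mitoxantrone it was at 2694 ± 190, with overlapping libraries and an adjusted p of 0.0492 that 12 alternative settings moved above the threshold. CYP2C18, whose 4 mitoxantrone libraries held 0 to 4.13, had a log2 change of -2.07 ± 0.60 there (adjusted p = 0.0042), which was -0.72 with an adjusted p of 0.272 after quantile normalization and did not pass.

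Fatty acid and eicosanoid hydroxylases went in both directions, also within the CYP4F gene cluster. CYP4F3, which inactivates leukotrienes, and CYP4F11, which hydroxylates long-chain fatty acids and vitamin K, each fell under pyrimethamine and rose under mitoxantrone. They lie at chr19:15640897-15662825 and chr19:15912367-15934867 (GRCh38). CYP4F3 had 147, 145, 107 and 153 normalized counts in the control, 46.3, 48.3, 19.4 and 46.0 under pyrimethamine and 419, 333, 313 and 369 under mitoxantrone, with no overlap between any groups. The log2 changes were -1.83 ± 0.22 (SE, adjusted p = 4.4e-07) and 1.38 ± 0.22 (adjusted p = 1e-05), a 3.56-fold fall and a 2.599-fold rise.

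CYP4F11, far more abundant, showed the same order. It had 3473, 3283, 3254 and 3063 normalized counts in the control, 1407, 1496, 1442 and 1558 under pyrimethamine and 7576, 6233, 6563 and 6297 under mitoxantrone. This was a 2.21-fold fall (log2 -1.15 ± 0.056, adjusted p = 8.8e-13) and a 2.04-fold rise (log2 1.03 ± 0.056, adjusted p = 7.7e-13). The CYP4F genes are similar in sequence, so the assignment of reads among them is uncertain. The stretch of CYP4F11 shown above holds a match to the NRF2 core and that of CYP4F3 none. As the stretch of CYP4F3 lies inside the gene by GENCODE, these stretches cannot be compared as promoters.

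CYP4F22, an enzyme of skin barrier lipids in the same cluster (chr19:15508493-15552317), had another pattern. Its control libraries held 124, 93.2, 78.9 and 101 normalized counts, those of pyrimethamine 86.3, 69.0, 66.5 and 71.2, and those of mitoxantrone 27.9, 21.0, 26.0 and 17.9. It fell under mitoxantrone (log2 -2.05 ± 0.21, adjusted p = 1.3e-08) and did not pass under pyrimethamine (-0.42, adjusted p = 0.088). CYP4F12, the fourth gene of the cluster to reach the limit, had 5.70 to 9.11 as group means and passed in neither comparison.

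The largest fall in this role was that of CYP2J2, which epoxidizes arachidonic acid. It had 101, 110, 91.4 and 93.5 normalized counts in the control and 9.30, 10.5, 3.71 and 18.8 under mitoxantrone, a 9.72-fold fall (log2 -3.28 ± 0.30, adjusted p = 3.1e-09). Pyrimethamine libraries, with 174, 127, 150 and 117, all lay above the control, yet the log2 change of 0.51 ± 0.30 did not pass (adjusted p = 0.163). CYP4B1 and CYP4X1 also fell under mitoxantrone, from 59.2 ± 16.1 to 21.3 ± 4.41 and from 210 ± 37.8 to 101 ± 3.47 (SD, n = 4), and did not pass under pyrimethamine. CYP4V2, a fatty acid hydroxylase of the eye and other tissues, rose from 237 ± 17.3 to 453 ± 39.99 under mitoxantrone (log2 0.93 ± 0.10, adjusted p = 7.3e-08). In all, 3 of the 9 genes with this role rose and 5 fell under mitoxantrone, and under pyrimethamine only CYP4F3 and CYP4F11 passed, both lower. Of all genes, 33.5% rose and 35.8% fell under mitoxantrone and 26.9% fell under pyrimethamine.

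**Figure D3:**
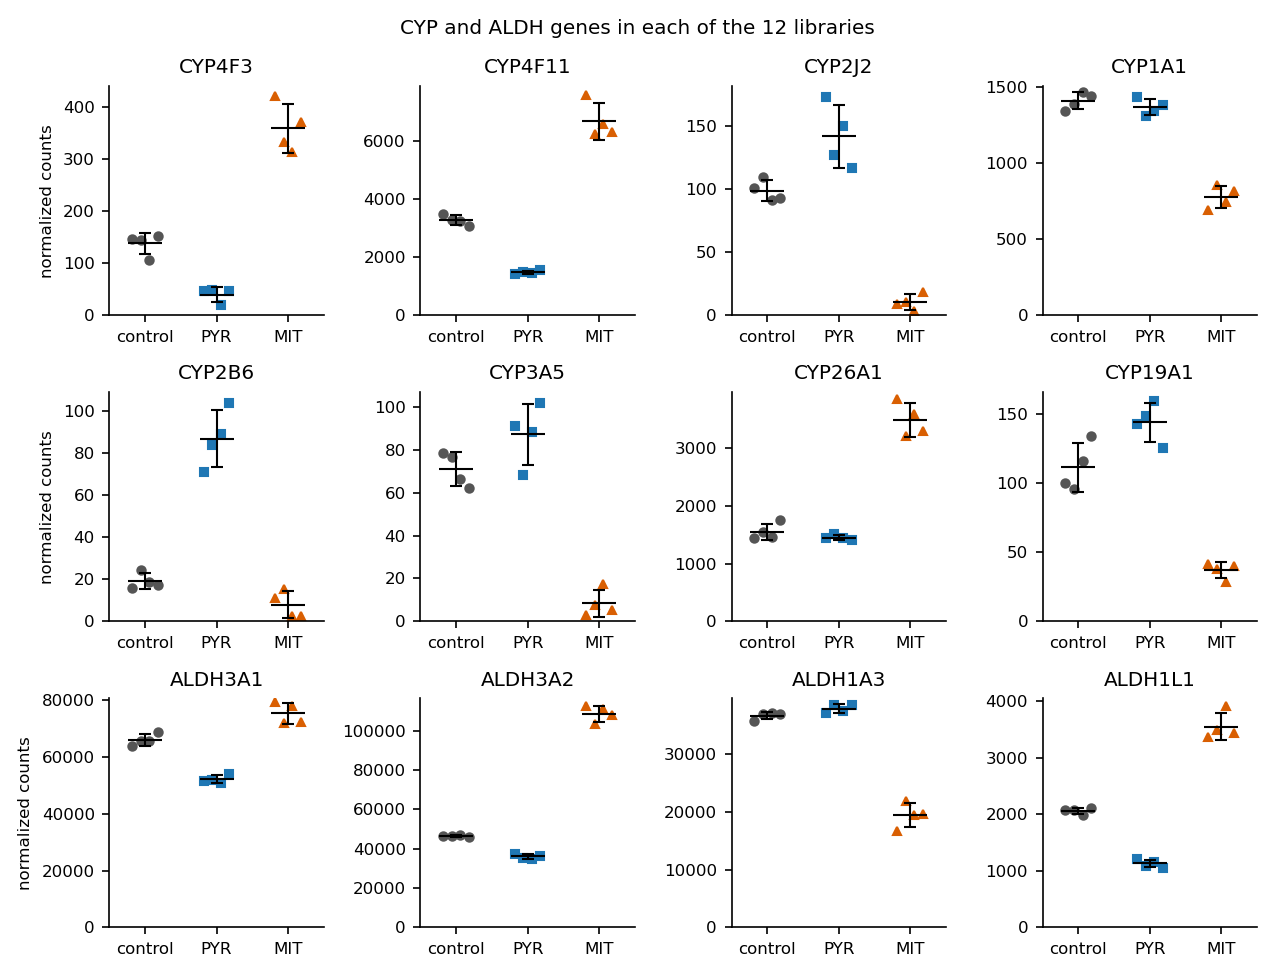
Normalized counts of 8 CYP and 4 ALDH genes in each of the 12 libraries (points), with the mean and SD of each group of 4 (bars). Each y axis starts at 0. CYP4F3, CYP4F11, ALDH3A2 and ALDH1L1 step down under pyrimethamine (PYR) and up under mitoxantrone (MIT), while CYP2J2 and CYP3A5 are near 0 under mitoxantrone.

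Steroid, sterol and vitamin D enzymes were scarce and mixed. CYP19A1, the aromatase that makes estrogens, had 100, 95.8, 116 and 134 normalized counts in the control, 143, 149, 160 and 126 under pyrimethamine and 41.3, 38.2, 28.5 and 40.4 under mitoxantrone. It fell under mitoxantrone (log2 -1.57 ± 0.17, adjusted p = 5.5e-08), and its pyrimethamine value of 0.38 did not pass (adjusted p = 0.071). CYP11A1, the side-chain cleavage enzyme that opens steroid synthesis, and CYP39A1, a hydroxylase of oxysterols, also fell under mitoxantrone, from 8.49 to 1.18 and from 34.2 to 10.3 as group means. The call of CYP11A1 was lost after quantile normalization (log2 -0.998 instead of -2.35, adjusted p = 0.0932). CYP7B1, another oxysterol hydroxylase, rose under both drugs from 4.33 ± 2.15 to 14.04 ± 2.98 and 17.2 ± 11.96 (SD, n = 4). At 19 reads in the 4 control libraries together, this rests on few counts. Without the pyrimethamine libraries CYP7B1 would have missed the limit, so its rise under pyrimethamine is partly set by it. CYP27B1, which activates vitamin D, rose under mitoxantrone (29.7 ± 10.0 to 56.8 ± 12.1, with overlap), and CYP2R1, which precedes it, rose under pyrimethamine (9.81 ± 4.88 to 20.9 ± 4.22). The latter call was lost when genes with few counts were not filtered out, and without replicate 4 of the control or replicate 1 or 2 of pyrimethamine (adjusted p up to 0.119).

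Aldehyde dehydrogenases of detoxification were abundant. Of the 5 genes with this role, 1 rose and 3 fell under pyrimethamine and 4 rose and 1 fell under mitoxantrone, beside 26.4% and 26.9%, and 33.5% and 35.8%, of all genes (of those with a mean of at least 100, 41.5% rose under mitoxantrone). ALDH3A2, which oxidizes long-chain fatty aldehydes, lies at chr17:19648136-19677598, on the same chromosome as ALDH3A1 (chr17:19737984-19748943). Its values were 46602, 46410, 47037 and 46173 in the control, 37405, 35402, 35002 and 36440 under pyrimethamine, and 112349, 103223, 111201 and 107764 under mitoxantrone. The groups did not overlap, and the log2 changes were -0.37 ± 0.037 (SE, adjusted p = 3.5e-08) and 1.22 ± 0.037 (adjusted p = 7.4e-17). ALDH3B1, which acts on lipid aldehydes, had 2500 ± 82.5, 1776 ± 50.8 and 3360 ± 82.0 (SD, n = 4) in control, pyrimethamine and mitoxantrone, and passed in both comparisons (log2 -0.49 and 0.43).

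ALDH3A1 had 63890, 65803, 65649 and 68760 normalized counts in the control, 51710, 51855, 50828 and 54141 under pyrimethamine and 79352, 72092, 77793 and 72468 under mitoxantrone. No groups overlapped. The fall under pyrimethamine was 0.34 on the log2 scale (adjusted p = 4.0e-07). The rise of 0.19 under mitoxantrone (adjusted p = 0.00027) depended on the scaling, being 0.09 with an adjusted p of 0.0548 after rescaling to equal totals and -0.13 with an adjusted p of 0.0136 after quantile normalization. ALDH1B1, a mitochondrial enzyme of acetaldehyde, rose slightly under mitoxantrone (7536 ± 160 to 8569 ± 263), and ALDH9A1, of carnitine and polyamine metabolism, rose under pyrimethamine (6774 ± 160 to 7608 ± 300) and fell under mitoxantrone (5837 ± 197).

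Both formyltetrahydrofolate dehydrogenases, enzymes of folate metabolism, were measured. The cytosolic ALDH1L1 had 2082, 2075, 1986 and 2109 normalized counts in the control, 1217, 1093, 1153 and 1058 under pyrimethamine and 3363, 3492, 3911 and 3435 under mitoxantrone. This was a log2 change of -0.87 ± 0.053 (SE, adjusted p = 2.4e-11) under pyrimethamine and 0.78 ± 0.053 (adjusted p = 3.2e-11) under mitoxantrone. Its mitochondrial counterpart ALDH1L2 rose under mitoxantrone (6357 ± 407 to 9384 ± 1106, log2 0.56, adjusted p = 1.1e-07) and was at 6196 ± 346 under pyrimethamine, where it did not pass (log2 -0.04, adjusted p = 0.658).

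Enzymes of amino acid breakdown had no common direction. ALDH4A1, of the proline pathway, rose from 2869 ± 178 to 3758 ± 90.9 under pyrimethamine and fell to 1527 ± 117 under mitoxantrone (log2 0.39 and -0.91), although 41.1% of its exon length overlaps other genes. ALDH5A1, which clears succinate semialdehyde, fell from 2598 ± 152 to 1615 ± 83.9 under pyrimethamine (log2 -0.69, adjusted p = 3.8e-10) and was at 2716 ± 116 under mitoxantrone, where it did not pass. ALDH6A1, of valine breakdown, rose slightly under pyrimethamine (1685 ± 96.5 to 1970 ± 87.7). ALDH8A1 fell under mitoxantrone from 29.7 ± 5.10 to 6.21 ± 7.78 (log2 -2.82, adjusted p = 0.00018). ALDH16A1, which has no assigned role here, fell under pyrimethamine (2659 ± 155 to 1751 ± 151, log2 -0.60, adjusted p = 1.4e-08).

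Retinoic acid is made from retinal by the ALDH1A enzymes and broken down by CYP26A1 and CYP26B1. Under mitoxantrone ALDH1A3, the most abundant of the 3 ALDH1A genes, fell, and CYP26A1 (chr10:93073475-93077890) rose. ALDH1A3 had 35801, 36979, 37111 and 37038 normalized counts in the control, 37096, 38617, 37505 and 38502 under pyrimethamine and 16800, 21990, 19459 and 19620 under mitoxantrone, a log2 change of -0.92 ± 0.053 there (SE, adjusted p = 2.0e-12). Mitoxantrone libraries stood apart from both other groups, which overlapped (log2 0.05 under pyrimethamine, adjusted p = 0.488). Its exons overlap other genes over 28.6% of their length.

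CYP26A1 had 1441, 1542, 1458 and 1747 normalized counts in the control, 1444, 1509, 1444 and 1402 under pyrimethamine and 3843, 3204, 3584 and 3286 under mitoxantrone. Again only mitoxantrone stood apart, at 2.25-fold the control (log2 1.17 ± 0.062, adjusted p = 5.4e-13), while pyrimethamine gave -0.09 (adjusted p = 0.236). CYP26B1 fell under pyrimethamine (371 ± 12.3 to 260 ± 26.7, log2 -0.52, adjusted p = 0.00011) and did not pass under mitoxantrone (395 ± 40.7). ALDH1A2 fell under mitoxantrone from 19.6 ± 6.47 to 8.45 ± 4.44, with overlap, a log2 change of -1.17 that was -0.53 with an adjusted p of 0.189 after quantile normalization, and ALDH1A1 passed against the control in neither case. CYP27C1, which desaturates retinol in skin, had 33.7, 25.8, 28.0 and 23.7 in the control and 3.10, 4.77, 0 and 0.90 under mitoxantrone, the largest fall of the 66 genes (log2 -3.46 ± 0.46, adjusted p = 8.0e-07). It is at 9 reads in those 4 libraries, and a library at 0 allows up to 3 reads.

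Other genes of the retinoid pathway were counted from a list of 19, of which 15 could be tested. Under mitoxantrone 6 rose and 8 fell, 7 of the latter at least 2-fold, and under pyrimethamine 4 rose and 4 fell. Of all genes 33.5% rose, 35.8% fell and 13.8% fell at least 2-fold under mitoxantrone, and 26.4% rose and 26.9% fell under pyrimethamine, which 4 and 4 of 15 are near. The list's median log2 change was -0.47 under mitoxantrone and -0.09 under pyrimethamine, beside -0.0080 and 0.0018 for all genes tested. The largest fall was that of RARRES3, a gene first found by its induction with a retinoid, from 170 ± 15.4 to 5.92 ± 2.43 normalized counts (SD, n = 4), a log2 change of -4.71 ± 0.25 (adjusted p = 4.4e-13). DHRS9, a retinol dehydrogenase, went from 301 ± 40.7 to 17.5 ± 8.003 (log2 -4.12), CRABP1, which binds retinoic acid in the cytoplasm, from 195 ± 15.04 to 16.1 ± 2.31 (-3.52), and STRA6, the retinol importer, from 195 ± 24.5 to 48.2 ± 6.11 (-1.996). DHRS3, which turns retinal back into retinol, fell from 3763 ± 129 to 1183 ± 86.4 (-1.67, adjusted p = 5.3e-17). The largest rise was that of RDH14 (log2 0.85 ± 0.10). Under pyrimethamine RDH10, the main retinol dehydrogenase of development, rose most (log2 0.56, 2839 ± 90.6 to 4191 ± 115) and the receptor RARG fell most (log2 -0.57, 6202 ± 162 to 4184 ± 88.5). RARG rose under mitoxantrone (7247 ± 318, log2 0.22).

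**Figure D4:**
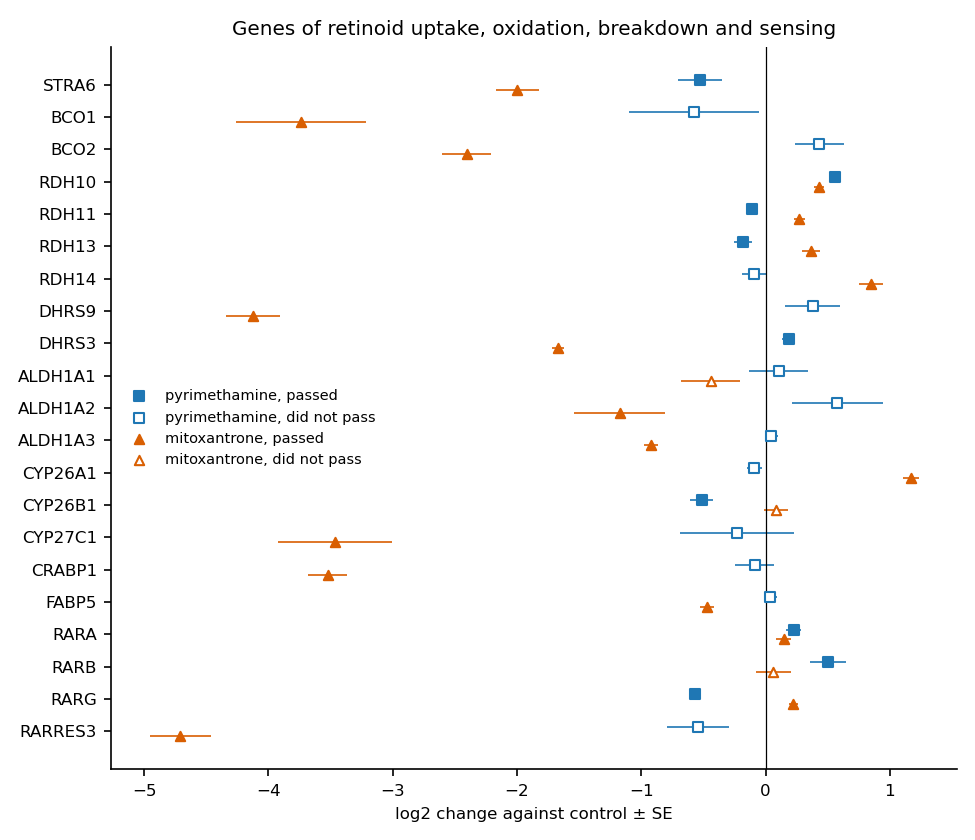
Log2 change against the control with its SE for 21 tested genes of the retinoid route, from import at the top to response at the bottom, the 6 enzyme genes included. Filled symbols passed the test. Under mitoxantrone (triangles) RARRES3, DHRS9, BCO1, CRABP1 and CYP27C1 lie below -3, and CYP26A1 is the highest at 1.17.

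Glutathione transferases were the family with the most rises under pyrimethamine, where 8 of 17 rose and GSTA4 alone fell. Under mitoxantrone 4 rose and 7 fell. Of all genes 26.4% rose and 26.9% fell under pyrimethamine, and under mitoxantrone 33.5% and 35.8%. The share of the family called in either direction was 52.9% and 64.7%, beside 53.3% and 69.3% of all genes. The summed level per kb of the 17 genes was 36668 ± 662 (control), 44436 ± 813 (pyrimethamine) and 39343 ± 1103 (mitoxantrone; SD, n = 4 each), most of it GSTP1. GSTP1 (chr11:67583595-67586656) had 43060, 45203, 43791 and 43717 normalized counts in the control, 52821, 51389, 53413 and 52135 under pyrimethamine and 51096, 54019, 54134 and 52813 under mitoxantrone. Both treated groups lay above the control, by 1.19-fold (log2 0.26 ± 0.035, adjusted p = 2.3e-06) and 1.21-fold (log2 0.27 ± 0.035, adjusted p = 5e-07). After quantile normalization the mitoxantrone value was 0.01 (adjusted p = 0.891) and did not pass.

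Several abundant transferases rose under pyrimethamine and fell under mitoxantrone. GSTK1, of mitochondria and peroxisomes, had 3541, 3657, 3652 and 3883 normalized counts in the control, 5212, 4894, 4889 and 5169 under pyrimethamine and 2134, 2197, 2348 and 2299 under mitoxantrone, with no overlap (log2 0.45 ± 0.043 and -0.71 ± 0.043, adjusted p = 1.5e-08 and 3.7e-12). GSTO1, an omega-class enzyme, had group means of 13420 ± 367, 16019 ± 871 and 10932 ± 503, and the membrane-bound MGST3 of 3934 ± 191, 5022 ± 59.7 and 3034 ± 160 (SD, n = 4). Each passed in both comparisons (GSTO1 log2 0.25 and -0.30, MGST3 0.35 and -0.37).

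GSTT2B, a theta-class gene on chromosome 22, had the widest swing of this kind. It had 347, 386, 305 and 445 normalized counts in the control, 813, 818, 773 and 744 under pyrimethamine and 109, 154, 136 and 155 under mitoxantrone, a log2 change of 1.10 ± 0.12 (SE, adjusted p = 9.4e-08) and -1.41 ± 0.12 (adjusted p = 7.4e-10). Its near copy GSTT2 had 5.34 ± 2.29, 10.99 ± 5.99 and 13.1 ± 3.58 and rose under mitoxantrone, a call that was lost with no filter and without replicate 1 or 3 of the control or 2 or 4 of mitoxantrone (adjusted p up to 0.0739). Without the mitoxantrone libraries GSTT2 would have missed the limit, so its rise there is partly set by it. How reads were assigned between the copies is uncertain.

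Members of the mu and alpha classes lie in clusters on chromosomes 1 and 6. GSTM3 rose under pyrimethamine from 12183 ± 319 to 17035 ± 805 (SD, n = 4; log2 0.48, adjusted p = 2.2e-08) and was at 11583 ± 908 under mitoxantrone, where it did not pass. GSTM2 rose slightly under pyrimethamine (1921 ± 125 to 2196 ± 54.8). GSTM4 had 68.3, 52.2, 86.2 and 65.9 in the control and 11.4, 12.4, 14.8 and 10.8 under mitoxantrone, a 5.14-fold fall (log2 -2.36 ± 0.23, adjusted p = 8.9e-09), and did not pass under pyrimethamine (85.9 ± 18.8). GSTM1 was at 16.5 to 17.3 as group means.

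GSTA1, which reached the limit through the mitoxantrone libraries, had the largest rise of the 66 genes there. Its control libraries held 7.48, 15.2, 8.31 and 5.27 normalized counts, those of pyrimethamine 1.78, 5.91, 7.16 and 7.67, and those of mitoxantrone 87.8, 32.4, 94.0 and 47.5. The mitoxantrone libraries lay above all others but differed among themselves, and the log2 change was 2.68 ± 0.44 (SE, adjusted p = 1.4e-05). GSTA4, which conjugates aldehydes from lipid peroxidation, fell under pyrimethamine (1461 ± 105 to 1203 ± 24.3, log2 -0.28) and did not pass under mitoxantrone (1578 ± 186). GSTA1 and GSTA2 are near-identical copies, so that reads may have been split between them. GSTA2 went from 11.1 ± 2.53 to 20.4 ± 11.3 under mitoxantrone and did not pass (adjusted p = 0.120).

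Among the microsomal transferases, MGST1, which protects membranes from peroxides, rose under mitoxantrone (1980 ± 41.4 to 2784 ± 150 normalized counts, log2 0.49 ± 0.045, adjusted p = 3.6e-09) and had 1903 ± 47.8 under pyrimethamine (log2 -0.06, adjusted p = 0.301). MGST2, which can also make leukotrienes, fell under mitoxantrone from 64.1 ± 13.997 to 21.2 ± 4.49 (log2 -1.55 ± 0.23, adjusted p = 5.3e-06) and did not pass under pyrimethamine.

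**Figure D5:**
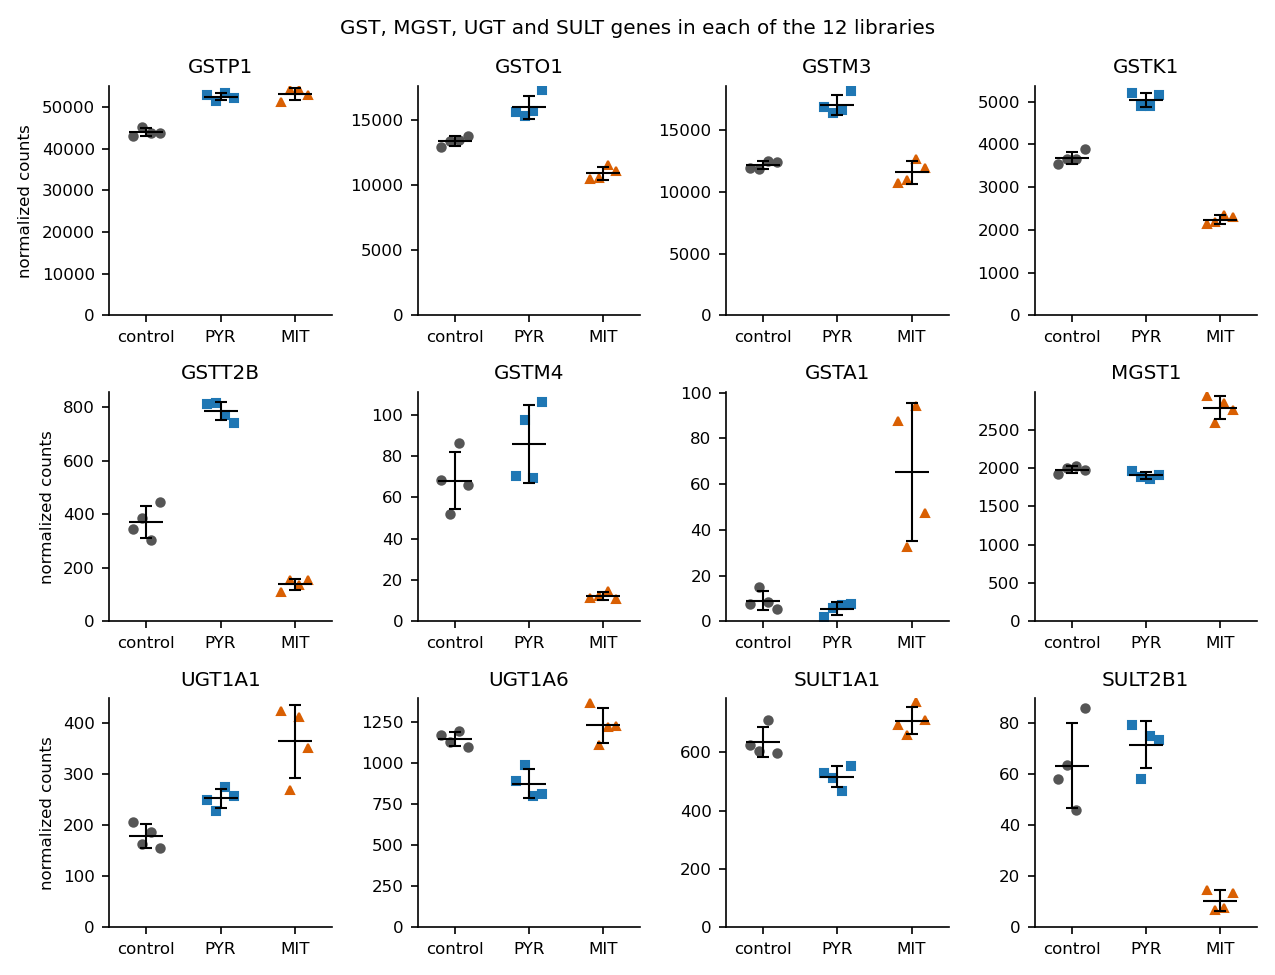
Normalized counts of 8 GST or MGST, 2 UGT and 2 SULT genes in each of the 12 libraries (points), with the mean and SD of each group of 4 (bars). Each y axis starts at 0. GSTO1, GSTK1 and GSTT2B step up under pyrimethamine (PYR) and down under mitoxantrone (MIT), GSTP1 is higher under both, and GSTA1 ranges from 32.4 to 94.0 under mitoxantrone.

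Glucuronosyltransferases were few. UGT1A1, which conjugates bilirubin, had 207, 163, 187 and 155 normalized counts in the control, 249, 228, 274 and 256 under pyrimethamine and 423, 268, 411 and 351 under mitoxantrone. It rose under both drugs (log2 0.51 ± 0.13, adjusted p = 0.0029, and 1.01 ± 0.13, adjusted p = 7.3e-07). UGT1A6, for planar phenols, had 1145 ± 42.9, 872 ± 88.4 and 1228 ± 105 (SD, n = 4), fell under pyrimethamine (log2 -0.40 ± 0.071, adjusted p = 6.8e-05) and did not pass under mitoxantrone (adjusted p = 0.230). The UGT1A genes share their last exons, with 40.6% to 64.4% of the exon length of the 3 members here overlapping other genes, so that reads of one may be counted for another or left out.

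UGT1A7 had 3.74, 5.95, 13.5 and 1.32 normalized counts in the control and 34.1, 11.4, 16.1 and 12.6 under mitoxantrone, with overlap, and a log2 change of 1.63 ± 0.60 (adjusted p = 0.020). The call was lost without replicate 1 of mitoxantrone (log2 1.30, adjusted p = 0.0867) and without replicate 4 of the control (log2 1.19, adjusted p = 0.0780). UGT2B17, which conjugates androgens, had 12.2, 29.1, 37.4 and 9.22 in the control and 5.16, 7.63, 1.24 and 3.59 under mitoxantrone, a log2 change of -2.04 ± 0.45 (adjusted p = 0.00040). Pyrimethamine libraries held 32.9, 39.4, 39.9 and 32.9, overlapping the control, and did not pass (log2 0.90, adjusted p = 0.096).

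Of the 4 sulfotransferases, SULT2B1, which sulfates cholesterol in squamous epithelium, changed most. It had 58.0, 63.4, 45.7 and 85.6 normalized counts in the control, 79.2, 58.1, 74.7 and 73.4 under pyrimethamine and 14.5, 6.68, 7.42 and 13.5 under mitoxantrone. Only mitoxantrone stood apart (log2 -2.51 ± 0.27, adjusted p = 4.6e-08). SULT1A1, for phenols, fell under pyrimethamine (634 ± 52.0 to 516 ± 36.1, log2 -0.30, adjusted p = 0.0026) and had 709 ± 47.0 under mitoxantrone (adjusted p = 0.067). SULT1A2 had 19.7 to 22.4 in the control and 5.34 to 19.7 under pyrimethamine, where the log2 change of -0.92 had an adjusted p of 0.0453 that 11 of the alternative settings moved above the threshold. SULT4A1, mainly a brain form, had 171 ± 17.6, 194 ± 19.1 and 196 ± 27.4 and passed in no comparison.

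Genes that serve these enzymes were counted from fixed lists. POR, the reductase that feeds electrons to microsomal CYP enzymes, had 8772 ± 320, 8856 ± 410 and 8288 ± 408 normalized counts (SD, n = 4) and passed in neither comparison, although after rescaling to equal totals or quantile normalization it passed as lower under mitoxantrone (log2 -0.18 and -0.16). Of 9 tested CYP partners on a list of 12, 1 rose and 3 fell under pyrimethamine and 2 rose and 3 fell under mitoxantrone, the largest being CYB5R1 under mitoxantrone (log2 -0.72 ± 0.06). The share called was 44.4% and 55.6%, where 53.3% and 69.3% of all genes were. Of 11 genes for cofactors and for the reversal of conjugation, 2 rose and 6 fell under pyrimethamine (72.7% called). There UGP2, which makes UDP-glucose, rose from 6352 ± 196 to 8629 ± 102 (log2 0.44), while UGDH, which turns it into the UDP-glucuronic acid that UGT enzymes use, fell from 4111 ± 93.8 to 3253 ± 130 (log2 -0.34), and STS, the steroid sulfatase, fell most (log2 -0.64). Under mitoxantrone 1 rose and 5 fell (54.5% called), led by PAPSS2, which makes the sulfate donor of SULT enzymes and went from 302 ± 12.5 to 70.2 ± 15.9 (log2 -2.12 ± 0.14, adjusted p = 2.4e-11). IMPAD1, a phosphatase of the used donor, rose (log2 0.64).

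Among the sensors, 17 of 21 listed genes were tested, of which 6 rose and 6 fell under pyrimethamine and 6 rose and 8 fell under mitoxantrone. That is 70.6% and 82.4% called, beside 53.3% and 69.3% of all genes. AHR rose under mitoxantrone (3930 ± 173 to 4910 ± 235 normalized counts, log2 0.32), where its targets CYP1A1 and TIPARP fell (TIPARP 4911 ± 207 to 2935 ± 273, log2 -0.75) and its target CYP1B1 did not pass. TIPARP rose under pyrimethamine (6662 ± 164, log2 0.44), where CYP1A1 did not pass. NR1I3, the receptor CAR known to induce CYP2B6, had 9.72 ± 4.19 (control), 29.1 ± 11.9 (pyrimethamine) and 1.10 ± 1.29 (mitoxantrone), and passed in both comparisons (log2 1.48 and -2.50). The fall was lost after quantile normalization (log2 -1.07, adjusted p = 0.0764). NR1I3 had the largest rise of the list under pyrimethamine. With a control mean under 10, it reached the limit only with the pyrimethamine libraries. Its rise is thus partly set by that limit, and the p-value of the rise adds no support. HNF4A, a regulator of liver and gut genes, fell most under pyrimethamine (95.8 ± 16.8 to 39.9 ± 5.86, log2 -1.24) and fell under mitoxantrone (11.1 ± 8.42, log2 -3.24). RXRG fell most under mitoxantrone (31.7 ± 3.82 to 0.81 ± 0.55, log2 -4.24), and PPARA rose most (log2 0.63).

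Other enzymes of detoxification, 16 tested of 26 listed, gave 5 higher and 7 lower under pyrimethamine and 6 higher and 8 lower under mitoxantrone (75% and 87.5% called, beside 53.3% and 69.3% of all genes). AOX1, aldehyde oxidase, went from 34.9 ± 15.2 to 145 ± 15.9 under pyrimethamine and to 10.6 ± 5.03 under mitoxantrone (log2 2.10 and -1.66), and ADH7, the alcohol dehydrogenase of the upper digestive tract, from 49.8 ± 2.25 to 15.9 ± 3.99 and 138 ± 14.8 (log2 -1.62 and 1.45). MAOA, monoamine oxidase, fell most under mitoxantrone (log2 -1.96). TPMT, which methylates thiopurines, rose under pyrimethamine (4650 ± 202 to 7125 ± 239, log2 0.62) and fell under mitoxantrone (3615 ± 128, log2 -0.36). Of 6 tested genes of 15 that trim glutathione conjugates to mercapturic acids, 3 fell and none rose under pyrimethamine (50% called). Under mitoxantrone 3 rose and 2 fell (83.3% called). Of all genes 26.4% rose and 26.9% fell under pyrimethamine, and 33.5% rose and 35.8% fell under mitoxantrone. GGT1 fell most under each drug (50.7 ± 10.0 to 28.99 ± 4.78 and 20.3 ± 5.47, log2 -0.78 and -1.29), and ACY1 rose most under mitoxantrone (log2 1.01).

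The drugs were also set against each other. Relative to pyrimethamine, 22 of the 66 enzyme genes were higher and 34 lower under mitoxantrone, beside 36.9% and 39.5% of all genes tested (76.4% in either direction). Without replicate 1 of mitoxantrone they were 22 and 33. The libraries of the drugs did not overlap in 51 of the 66 (68.8% of all genes), and 7 genes were at least 2-fold higher and 19 lower (8.06% and 17.1% of all genes). The median log2 difference was -0.23 for the enzyme genes and -0.02 for all genes. The largest differences upward were in GSTA1 (log2 3.32 ± 0.44, adjusted p = 5.7e-07), CYP4F3 (3.21 ± 0.22, adjusted p = 1.5e-11) and UGT1A7 (2.98 ± 0.60, adjusted p = 0.00012). The largest downward were in CYP2J2 (-3.79 ± 0.30, adjusted p = 1.7e-10), CYP11A1 (-3.63 ± 0.56, adjusted p = 4.5e-06) and CYP2B6 (-3.61 ± 0.41, adjusted p = 5.9e-08). Of these, GSTA1 and UGT1A7 reached the limit through the mitoxantrone libraries and CYP11A1 through those of pyrimethamine. Their differences are thus partly set by that limit, and their p-values add no support.

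Among abundant genes CYP4F11 differed by 2.17 ± 0.056 on the log2 scale, ALDH1L1 by 1.65 ± 0.053 and ALDH3A2 by 1.59 ± 0.037, all higher under mitoxantrone, and GSTT2B by -2.51 ± 0.12, ALDH4A1 by -1.30 ± 0.054 and GSTK1 by -1.17 ± 0.043, all lower. All 15 ALDH genes passed, 8 higher and 7 lower, beside 76.4% of all genes tested (36.9% higher, 39.5% lower). ALDH1A1, however, passed with an adjusted p of 0.0413 that 9 alternative settings moved above the threshold, among them quantile normalization (log2 -0.02, adjusted p = 0.956). GSTP1, the most abundant enzyme transcript, differed by 0.02 ± 0.035 (adjusted p = 0.692), and by -0.12 with an adjusted p of 0.0015 after quantile normalization. The comparisons of the drugs with the control use the same 4 control libraries, so the changes of a gene under the drugs are not independent of each other and are given above only side by side.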

How the data were processed

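RNA of 12 KYSE70 libraries, 4 per group, was measured by sequencing. Alignment with STAR 2.6.90c, counting with featureCounts 1.5.1, trimming with cutadapt 1.12, checks with FastQC 0.11.5, and the builds hg38 and mm10 are listed in the submitters' processing notes. The deposited values are a normalized signal, counts of reads over a library factor that the authors applied: multiplied by it, 100% of values were whole within 0.01 read. Median-of-ratios factors computed from those reads equaled the authors' factors. How strand and reads shared between genes were handled is not given in the sources used here.

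Genes at 10 or more in at least 4 of 12 libraries (16950) were tested with limma 3.58.1 (R 4.3.3) on log2(value + 1), with a variance trend and group as the only term over all 12 libraries. Tests were two-sided with Benjamini-Hochberg adjustment over all genes, and calls were made at 0.05. Changes of genes with few counts are understated on this scale. Folds were taken from the log2 change, whose median SE was 0.0719. On simulated data of 16950 genes, with 50 changed by each fold, the pyrimethamine comparison recovered 32, 32, 39 and 50 at 1.25-, 1.5-, 2- and 4-fold, the mitoxantrone comparison 26, 40, 35 and 48, and that between the drugs 20, 39, 36 and 49, with 6, 8 and 11 false calls. Many true changes of up to 2-fold thus did not pass in the simulated data. Far fewer genes changed there than passed in the real data, so these recoveries need not carry over. A library at 0 allows up to 3 reads, which covers counting error only.

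The members, roles and lists were chosen with earlier results of these data known. The genes to be named were set by rule: the 3 highest of each family, the largest called rise and fall per family and comparison, and called genes changed at least 2-fold whose higher group averaged 50 or more and whose libraries did not overlap. From each list, the called gene with the largest rise and fall against the control was added. Further genes were named after their values were seen. Positions and exon lengths are from GENCODE 29 (GRCh38). AHRR is listed under 2 identifiers, and the one in GENCODE 29 was used.

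The fit was repeated with a pseudocount of 0.5 or 10, without the filter, on genes averaging 100 or more, after equal totals or quantile normalization, with robust or untrended variance, on the 8 libraries compared alone, with replicate number as a block, without each library, and by edgeR 4.0.16 and DESeq2 1.42.0 on the recovered reads. Figures were made with matplotlib 3.10.9 in Python 3.11.15.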

Additional observations from a re-analysis of the deposited data

Results flagged for a closer look

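Sets of 4 libraries were examined for each group and each gene named by the rule above, list genes included, but not for the further genes. In 5 of the 174 sets, the lowest or highest library lay far from the other 3. By chance about 1 in 20 sets would. CYP4F3 was at 19.4 normalized counts in replicate 3 of pyrimethamine, where the others were at 46.0 to 48.3. ALDH1A3 was at 35801 in replicate 1 of the control, where the others were at 36979 to 37111. In the lists, CYB5R3 was at 10063 in replicate 3 of the control (others 10406 to 10475), RDH10 at 2705 in replicate 4 of the control (others 2872 to 2905), and IMPAD1 at 34864 in replicate 1 of mitoxantrone (others 30232 to 30732).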

How the results depend on the processing

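Counts of enzyme genes called were within 1.5 times the reported ones under all alternatives except one. With genes of a mean of at least 100 alone, which left 37 of the 66, 12 fell under mitoxantrone against the control (29 with all) and 15 were lower under mitoxantrone against pyrimethamine (34 with all). Leaving out each library in turn gave 14 to 17 higher and 13 to 15 lower genes for pyrimethamine, 17 to 19 and 26 to 29 for mitoxantrone, and 20 to 22 and 30 to 35 between the drugs. edgeR on the recovered reads called 18 and 16, 19 and 28, and 22 and 33 in the same order, and DESeq2 18 and 15, 19 and 28, and 22 and 34. Equal totals moved the median log2 change of all genes under mitoxantrone to -0.11.

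Of 133 calls for the 66 genes over the 3 comparisons, 112 were kept with their sign under every alternative that gave the gene a value. Lost in at least 1 setting were 3 of 29 calls under pyrimethamine (CYP2R1, GSTZ1 and SULT1A2), 12 of 48 under mitoxantrone (ALDH16A1, ALDH1A2, ALDH3A1, CYP11A1, CYP2B6, CYP2C18, CYP2S1, CYP2U1, GSTO2, GSTP1, GSTT2 and UGT1A7) and 6 of 56 between the drugs (ALDH1A1, CYP2R1, CYP2S1, CYP39A1, GSTA2 and GSTO2). After quantile normalization the rise of ALDH3A1 under mitoxantrone became a fall (log2 -0.13), GSTP1 between the drugs, which had not passed, became lower (log2 -0.12), and GSTO2 between the drugs changed from lower to 0.11 without passing. The cause was not tested.

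Deviations of libraries of the same replicate number had correlations from -0.0133 to 0.0295 over 12 pairs of libraries. Those of different numbers had -0.0745 to 0.0446 over 36 pairs. Such correlations cannot tell whether equal numbers share a culture or day, which the labels do not state. With the replicate number as a block, 16 genes were higher and 13 lower under pyrimethamine, 19 and 28 under mitoxantrone, and 21 and 33 between the drugs. Depth limits the scarce genes most, since CYP11A1 has 5 reads and CYP2C18 7 in the 4 mitoxantrone libraries together.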
